A study of Mus musculus with 6 samples.

Results

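The replication-dependent histone genes were taken by symbol, as every gene of the count table named H1f1 to H1f5 or H2ac, H2bc, H3c or H4c followed by a number. The rule found 63 of the 40773 genes in the table: 5 H1 linker histone genes, 17 H2A, 17 H2B, 12 H3 and 12 H4 genes. They were measured in RAW264.7 cells, an established mouse macrophage line, whose genotype the labels call "plain". The LPS group (n = 3) received bacterial lipopolysaccharide at 100 ng/mL for 24 h. The LPS plus 3A2 group (n = 3) received the same LPS dose together with 3A2, an antibody that neutralizes the membrane-anchored protease MMP14, at 50 µg/mL for the same 24 h. LPS was thus shared by all 6 libraries. Cells without LPS, and cells given LPS with a control antibody, were not analysed here, so the effect of this antibody cannot be told apart from that of adding any antibody. The line is a single cell line, and the labels describe the cultures of each group as biological triplicates.

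Replication-dependent histone mRNAs end in a conserved stem-loop in place of a poly(A) tail. The stem-loop binding protein SLBP and the U7 small nuclear ribonucleoprotein direct the cut that makes this end, and the transcription coactivator NPAT switches the genes on as cells enter S phase. The core histones H2A, H2B, H3 and H4 form the nucleosome and H1 binds the linker DNA between nucleosomes. The mRNAs are made while DNA is copied and are destroyed when copying stops, so their level in a culture follows the share of cells in S phase as well as the amount per cell. These cannot be told apart in RNA from whole cultures. The libraries were made by ribosomal RNA depletion, which does not depend on a poly(A) tail.

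The stem-loop is shown for leading members of each class, because it is what sets these mRNAs apart from others. The letters are from GENCODE M21 transcripts (GRCm38), 5′ to 3′ on the strand of the mRNA, with T for U, and capitals mark the stem-loop. It began 40 bases after the stop codon in H1f4, 58 in H2ac18, 29 in H2bc8, 30 in H3c14, 36 in H3c6 and 36 in H4c4.
H1f4: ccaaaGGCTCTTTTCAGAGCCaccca
H2ac18: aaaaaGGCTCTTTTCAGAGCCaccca
H2bc8: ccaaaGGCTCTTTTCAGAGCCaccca
H3c14: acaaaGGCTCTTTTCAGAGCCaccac
H3c6: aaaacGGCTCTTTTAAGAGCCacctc
H4c4: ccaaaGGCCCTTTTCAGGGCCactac

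The stem-loop pattern, written as GG, any 2 bases, CTTTT, any base, AG, any 2 bases and CC, and searched on the mRNA strand only, was found after the stop codon in 37 of the 43 members whose transcript extended at least 60 bases past it. By class these were 3 of 3 H1, 9 of 9 H2A, 8 of 12 H2B, 8 of 9 H3 and 9 of 10 H4 genes. Of the 19 members with a shorter annotated end, 2 held it. Among 21815 other protein-coding genes, 32 (0.147%) held the pattern anywhere in a transcript. Other genes were searched in all their transcripts, but each member only in its transcript with the longest coding sequence. Ties went to a transcript with the pattern. A member counted without it may hold it in a transcript that was not searched.

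The upstream letters of 3 members are shown because they carry the elements that differ between the classes. Each run is 250 bases ending at the base before the RefSeq gene start, 5′ to 3′ on the strand of the gene, from the RefSeq promoter table (GRCm38.p6). The H1f4 run lies at chr13:23622559-23622808 on the minus strand, the H2bc18 run at chr3:96269450-96269699 on the plus strand, and the H4c4 run at chr13:23581318-23581567 on the plus strand. Capitals mark matches, on either strand, to the TATA box TATAAA, the CCAAT box CCAAT, the octamer ATTTGCAT, the H1 box AAACACA or the H4 element GGTCCG. No 2 of these motifs share letters in the runs shown.
H1f4: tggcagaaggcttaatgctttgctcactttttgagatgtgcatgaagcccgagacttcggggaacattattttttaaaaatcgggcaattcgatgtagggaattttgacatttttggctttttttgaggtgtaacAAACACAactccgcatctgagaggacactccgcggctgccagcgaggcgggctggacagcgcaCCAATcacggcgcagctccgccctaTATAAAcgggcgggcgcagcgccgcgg
H2bc18: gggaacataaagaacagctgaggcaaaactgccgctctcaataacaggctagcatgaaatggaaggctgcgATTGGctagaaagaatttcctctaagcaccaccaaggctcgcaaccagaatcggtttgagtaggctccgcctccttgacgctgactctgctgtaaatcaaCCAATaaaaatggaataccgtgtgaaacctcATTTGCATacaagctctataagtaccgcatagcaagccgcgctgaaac
H4c4: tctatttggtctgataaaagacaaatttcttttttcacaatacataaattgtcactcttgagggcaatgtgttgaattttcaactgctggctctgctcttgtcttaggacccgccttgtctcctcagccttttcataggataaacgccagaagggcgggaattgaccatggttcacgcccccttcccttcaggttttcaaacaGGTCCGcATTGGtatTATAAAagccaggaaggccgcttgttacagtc

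The table held 58 promoter entries of 57 members, and H2bc4, H2bc21, H2bc24, H3c1, H3c7 and H4c14 were not among them. CCAAT was present in all 5 H1, 17 H2A and 15 H2B entries, in 8 of 10 H3 and in 3 of 11 H4 entries, against 33.8% of 32793 other promoters of the same length. TATAAA was present in 28 of 58 entries, against 12.3% of the others. The octamer, the recognition sequence of the transcription factor Oct1, was found in 6 H2A and 7 H2B entries and in none of the H1, H3 and H4 entries, against 1.56% of the others. GGTCCG was found in 8 of 11 H4 entries against 6.70% of the others, and AAACACA in 4 of 5 H1 entries against 6.23%. Several H2A and H2B entries overlap on opposite strands, such as H2ac13 with H2bc13 and H2ac8 with H2bc8. The same letters are then counted in both entries, so the entries are not independent. All these matches describe letters and were not tested as binding sites.

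The table gave between 6060732 and 7432553 counts per library, and the common edgeR biological coefficient of variation, the spread between replicates beyond counting noise, was 0.0768. The macrophage label was checked against its markers: Lyz2, Cd14, Cd68, Csf1r, Itgam, Ptprc and Spi1 were each above 100 CPM (the usual scaling of counts by library size) in every library, Fcgr1 and Adgre1 lay between 11.9 and 28.4 CPM, and Mrc1 stayed at or below 1.46 CPM. The summed level of the 10 macrophage markers was 7199 to 7268 CPM with LPS and 6265 to 6706 CPM with LPS plus 3A2. T and B cell and epithelial markers were at 0 in all libraries, which allows up to 0.501 CPM per gene in the shallowest library. Fibroblast, endothelial and adipocyte markers summed to at most 0.439, 2.67 and 0.268 CPM. LPS plus 3A2 replicate 3 stood apart from the other libraries in several RNA classes, described with the results below. The class sums are given with and without it. So are the counts below 0, over all members and by class, and the counts of members past the unadjusted limit. Counts below 0 by gene cluster and by shared sequence include it.

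Histone mRNA was abundant and was slightly lower in the mean with the antibody, a difference carried mostly by 1 library. The 63 members together gave 6086, 6160 and 6115 CPM in LPS replicates 1 to 3 and 5981, 6185 and 5205 CPM in LPS plus 3A2 replicates 1 to 3. The means were 6120 ± 37.3 CPM (SD, n = 3) and 5790 ± 518 CPM, a ratio of 0.946. The groups overlapped, because replicate 2 with the antibody was the highest of all 6 libraries and replicate 3 with the antibody the lowest. Without that last library the ratio was 0.994.

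Of the 63 members, 61 had enough counts to be tested. H2ac1 had 0 counts in all 6 libraries and H2bc1 had 1 count, in LPS replicate 2, and neither was tested; both are known as testis genes. The comparison asks whether adding the antibody to LPS changed histone mRNA. By edgeR's quasi-likelihood model, with p-values adjusted by Benjamini-Hochberg over all 11498 genes tested and a threshold of 0.05, no member was called. The smallest adjusted p of a member was 0.719. DESeq2 and limma-voom also called 0 members. In the edgeR test 0 of all genes were called, so the background was 0%. At an unadjusted p under 0.05, 6 members were lower (H1f2, H1f3, H2ac6, H2ac22, H2ac24 and H3c13) where 3.09% of all genes were. In the higher direction 1 member, H2ac11, was past that limit, where 3.43% of all genes were. The log2 fold change lay below 0 for 44 of 61 members, where 49.6% of all genes did so, and above 0 for 17 members, where 50.4% did so, with a median of -0.080 over the members and 0.0017 over all genes.

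Groups that did not overlap, all 3 antibody libraries lying below all 3 LPS libraries, were seen for 7 members (H1f2, H1f3, H2ac24, H2bc4, H2bc14, H2bc24 and H3c13), where 6.46% of all genes did so. The opposite order was seen for 1 member, H2bc23, where 5.84% of all genes did so. For 54 of the 61 members both ends of the 95% interval were less than 1.5-fold from no difference, and for 59 less than 2-fold. Differences of the size of the median could not be resolved gene by gene at this depth and number of cultures.

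**Figure D1:**
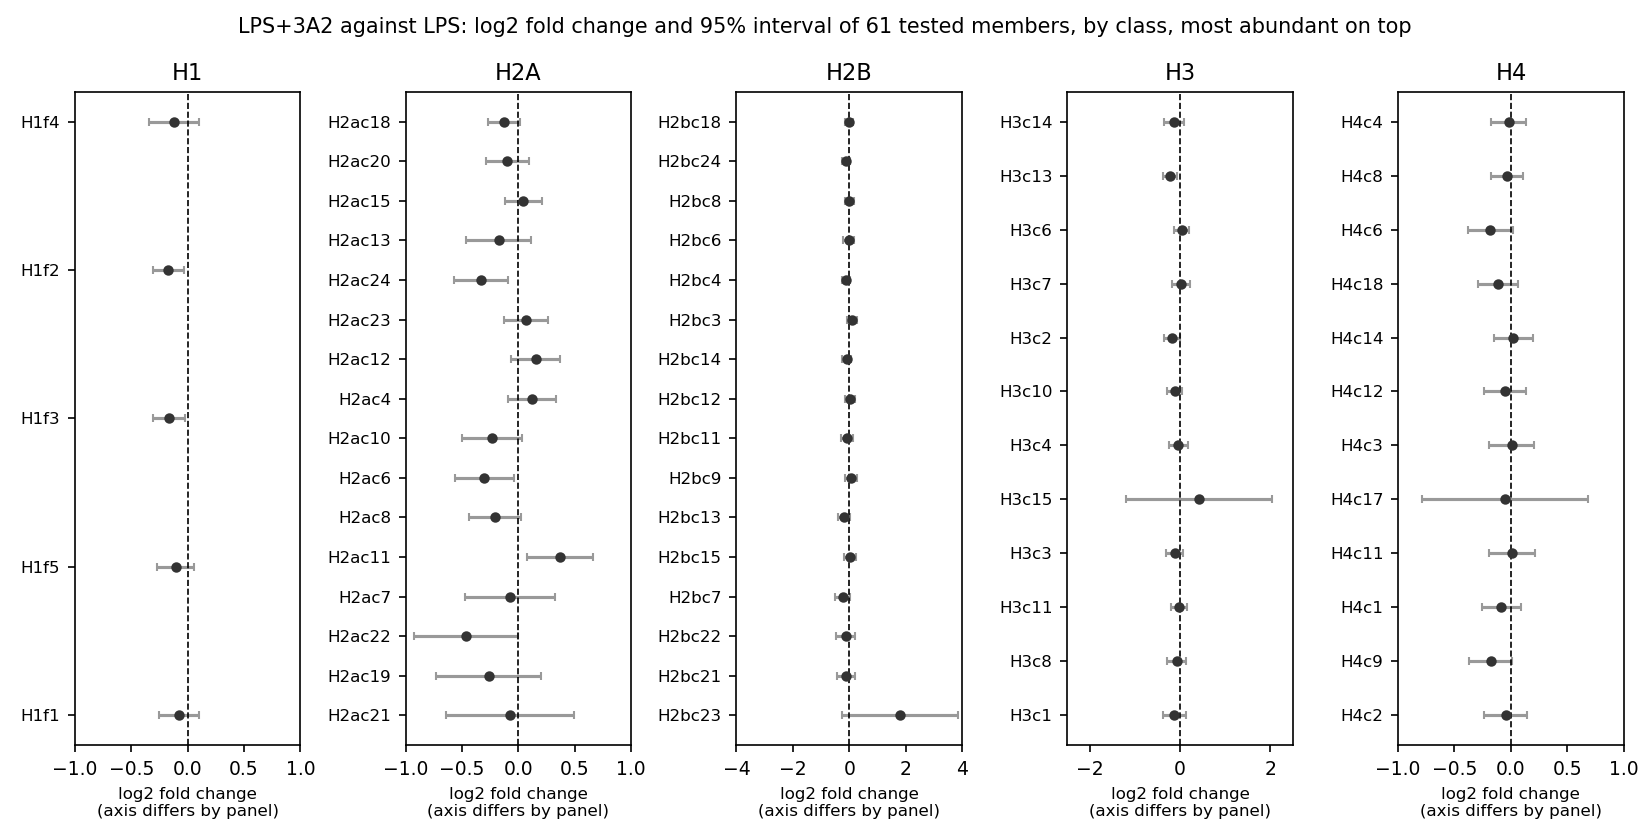
Log2 fold change (LPS plus 3A2 against LPS, horizontal axis, whose range differs by panel) with its 95% interval for the 61 tested members, in 1 panel per class with the most abundant member on top. Of the points, 44 lie left of 0 and none differed at an adjusted p under 0.05.

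The linker histone genes had the lowest ratio of summed level, and all 5 had a log2 fold change below 0. Their sum was 1170, 1166 and 1153 CPM with LPS and 1112, 1147 and 919 CPM with LPS plus 3A2, so all 3 antibody libraries lay below the LPS libraries, replicate 2 by the least. The ratio of means was 0.911, and 0.971 without antibody replicate 3. H1f4, which encodes the linker histone H1.4 and is the most abundant of the class, gave 418, 431 and 409 CPM with LPS and 412, 434 and 309 CPM with the antibody. Only the last of these lay apart from the rest, and the log2 fold change of -0.12 ± 0.10 (SE) had an unadjusted p of 0.251 in edgeR. H1f2, encoding H1.2, gave 308, 311 and 308 CPM with LPS and 283, 292 and 249 CPM with the antibody. Its groups did not overlap. Its LPS libraries spread by 0.594% of their mean, an unusually small value, as the median over the 61 tested members was 6.07%. The fold change of 0.889 (95% interval 0.806 to 0.979) had an adjusted p of 0.721 in edgeR and an unadjusted p of 0.0195. H1f3, encoding H1.3, gave 164, 171 and 166 CPM with LPS and 155, 151 and 140 CPM with the antibody. Its groups were apart as well. The log2 fold change, -0.16 ± 0.068 (SE), had an adjusted p of 0.734 in edgeR. The log2 fold change was -0.11 for H1f5 and -0.077 for H1f1. The share of H1f4 in the class sum, 36.1% ± 0.799 with LPS and 36.2% ± 2.22 with the antibody (SD, n = 3), differed by less than its spread.

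The H2A genes summed to 940, 925 and 943 CPM with LPS and 921, 915 and 786 CPM with the antibody. The sums did not overlap between the groups, although antibody replicates 1 and 2 lay just under the lowest LPS library. The ratio was 0.934, and 0.980 without antibody replicate 3, and 11 of 16 tested genes had a log2 fold change below 0. H2ac18, the most abundant, gave 337, 322 and 330 CPM with LPS and 304, 330 and 273 CPM with the antibody, with a log2 fold change of -0.13 ± 0.069 (SE). H2ac20 gave 102, 96.7 and 105 CPM with LPS and 102, 102 and 78.3 CPM with the antibody, so that only antibody replicate 3 fell outside the LPS range. H2ac15 gave 71.3, 69.7 and 73.4 CPM with LPS and 74.8, 77.3 and 68.6 CPM with the antibody, groups that overlapped.

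H2ac24 had the smallest p of its class and gave 54.6, 68.5 and 55.0 CPM with LPS and 48.8, 53.7 and 38.9 CPM with the antibody. Its groups were apart by less than 1 CPM between LPS replicate 1 and antibody replicate 2. The fold change was 0.794 (95% interval 0.671 to 0.939), with an adjusted p of 0.719 in edgeR. H2ac11 went the other way, with 19.6, 21.9 and 20.6 CPM under LPS and 30.0, 20.6 and 29.9 CPM with the antibody. Antibody replicate 2 lay inside the LPS range, and the fold change of 1.29 (95% interval 1.06 to 1.58) had an adjusted p of 0.719 in edgeR. The log2 fold change of the other 11 tested H2A genes ran from -0.46 for H2ac22 to 0.15 for H2ac12.

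The H2B genes were the class with the smallest difference between groups in the sum. They gave 1270, 1339 and 1290 CPM with LPS and 1308, 1269 and 1213 CPM with the antibody, a ratio of 0.972, and 0.991 without antibody replicate 3. The groups overlapped, and 10 of 16 tested genes had a log2 fold change below 0. H2bc18, the most abundant, gave 299, 314 and 313 CPM with LPS and 295, 312 and 312 CPM with the antibody. Its fold change was 0.992 (95% interval 0.908 to 1.08), and antibody replicate 3 was not low for this gene. H2bc24 gave 232, 262 and 245 CPM with LPS and 228, 232 and 219 CPM with the antibody, apart by less than 1 CPM, with a log2 fold change of -0.12 ± 0.066 (SE). H2bc8 gave 106, 107 and 109 CPM with LPS and 113, 102 and 108 CPM with the antibody, so the LPS libraries lay inside the range of the others. H2bc23 had the largest log2 fold change of any member, 1.79 ± 0.84 (SE), from counts of 13, 15 and 0 with LPS and 14, 55 and 19 with the antibody. In CPM its groups did not overlap, but the values of LPS replicate 2 and antibody replicate 1, 2.01 and 2.27 CPM, were close. The adjusted p in edgeR was 0.760. The fold change of H2bc23 is also open to the division of reads among near-copies described below. The other 12 tested H2B genes had log2 fold changes from -0.23 for H2bc7 to 0.094 for H2bc3.

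The H3 genes summed to 1469, 1462 and 1471 CPM with LPS and 1443, 1542 and 1190 CPM with the antibody. The antibody libraries lay on both sides of the LPS libraries, and the ratio was 0.948 with antibody replicate 3 and 1.02 without it. Of the 12 genes, 9 had a log2 fold change below 0, and 11 were lowest in that library. H3c14, the most abundant, gave 401, 336 and 328 CPM with LPS and 320, 372 and 277 CPM with the antibody, with groups that overlapped. H3c13 had the smallest p of all members. It gave 221, 232 and 243 CPM with LPS and 207, 213 and 174 CPM with the antibody, so its groups were apart. The fold change was 0.854 (95% interval 0.767 to 0.952), with an unadjusted p of 0.00646 and an adjusted p of 0.719 in edgeR. On the log2 scale the difference was -0.23 over all libraries and -0.14 when antibody replicate 3 was left out. H3c6 gave 145, 140 and 141 CPM with LPS and 151, 160 and 125 CPM with the antibody, so that 2 antibody libraries lay above the LPS range and 1 below. H3c2 gave 118, 103 and 114 CPM with LPS and 95.1, 112 and 89.2 CPM with the antibody, with a log2 fold change of -0.18 ± 0.086 (SE). The other 8 H3 genes ran from -0.13 for H3c1 to 0.41 for H3c15 in log2 fold change.

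The H4 genes summed to 1237, 1267 and 1258 CPM with LPS and 1197, 1313 and 1096 CPM with the antibody, again with antibody libraries on both sides of the LPS range. The ratio was 0.959, and 1.00 without antibody replicate 3, and 9 of 12 genes had a log2 fold change below 0. H4c4 gave 205, 189 and 196 CPM with LPS and 191, 214 and 176 CPM with the antibody, with a fold change of 0.986 (95% interval 0.887 to 1.10). H4c8 gave 153, 145 and 138 CPM with LPS and 144, 144 and 138 CPM with the antibody, all within the LPS range. H4c6 gave 139, 155 and 147 CPM with LPS and 141, 142 and 106 CPM with the antibody, where the last library alone was low. H4c9 gave 66.2, 71.7 and 65.6 CPM with LPS and 60.4, 66.8 and 52.8 CPM with the antibody, with a log2 fold change of -0.18 ± 0.091 (SE). The other 8 H4 genes lay between -0.12 for H4c18 and 0.023 for H4c14.

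**Figure D2:**
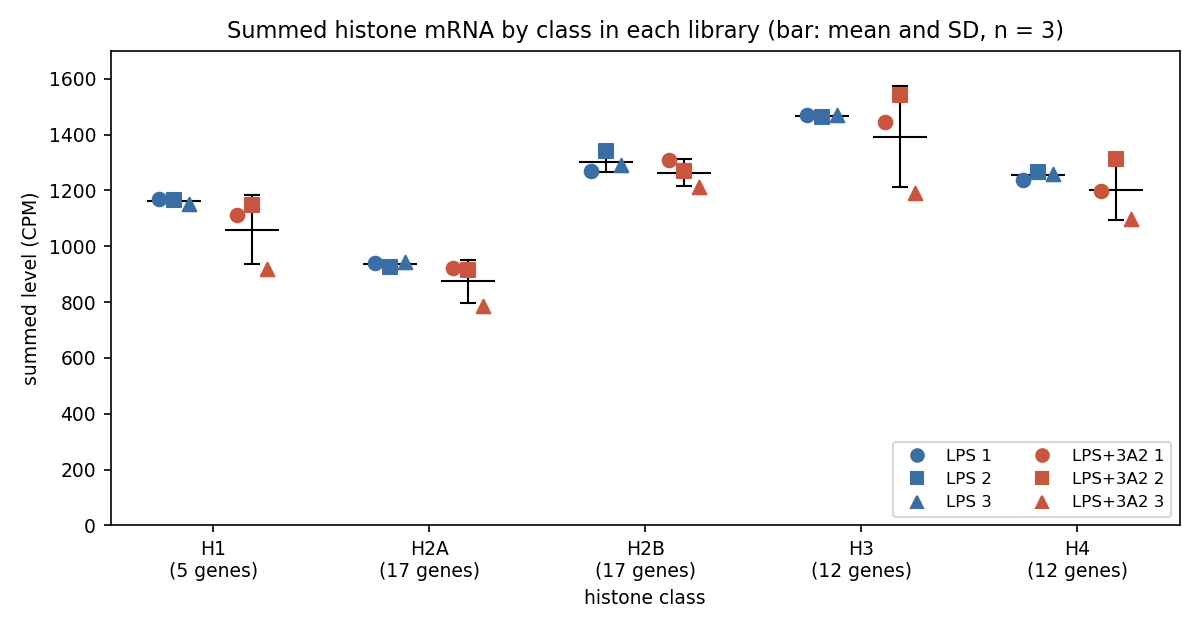
Summed level in CPM (vertical axis, from 0) of each histone class in the 6 libraries, LPS in blue and LPS plus 3A2 in red, with a bar for the mean and whiskers for the SD (n = 3). The red triangle, antibody replicate 3, is the lowest point of every class, from 786 CPM for H2A to 1213 CPM for H2B.

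Levels of different classes were compared per kilobase of coding sequence, since CPM grows with length. On this scale the summed level with LPS was, from lowest to highest, that of H1, H2A, H2B, H3 and H4, with means of 1776 ± 13.3, 2385 ± 24.5, 2762 ± 54.5, 3570 ± 11.4 and 4019 ± 48.2 CPM per kb (SD, n = 3). The H2B value covers 16 genes because H2bc24 was not matched. Each step was larger than the spread between the LPS libraries. With the antibody the means were 1617 ± 187, 2227 ± 194, 2717 ± 111, 3386 ± 441 and 3853 ± 348 CPM per kb, in the same order, with a wider spread. H4 lay above H3 in each of the 6 libraries. The scale leaves out untranslated ends, which differ in annotated length between members.

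By position, 52 members belong to the Hist1 cluster and 10 to the Hist2 cluster by their older symbols in RefSeq, and these held 71.1% and 25.0% of the members' CPM. The Hist1 genes summed to 4334, 4382 and 4325 CPM with LPS and 4281, 4391 and 3684 CPM with the antibody. The Hist2 genes gave 1519, 1516 and 1546 CPM and then 1472, 1562 and 1302 CPM. Both clusters showed the same order of libraries with the antibody, replicate 2 highest and replicate 3 lowest. Below 0 were 35 of 50 tested Hist1 genes, where the median was -0.075 (log2), and 8 of 10 Hist2 genes, where it was -0.11. Of all genes 49.6% were below 0, and these counts include antibody replicate 3.

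Antibody replicate 3 was the lowest library for 40 of the 61 tested members (65.6%), and for 27.5% of all genes tested. It was the lowest for 5 of 5 H1, 8 of 16 H2A, 8 of 16 H2B, 11 of 12 H3 and 8 of 12 H4 genes. The median log2 deviation of the members from their own means was 0.048, 0.054 and 0.045 in the LPS libraries and 0.034, 0.032 and -0.18 in the antibody libraries. Without this library 33 of 61 members had a log2 fold change below 0, where 50.8% of all genes did, and the median was -0.017. By class the counts below 0 were then 3 of 5 H1, 10 of 16 H2A, 8 of 16 H2B, 6 of 12 H3 and 6 of 12 H4 genes. At an unadjusted p under 0.05, 4 members were then lower, where 2.82% of all genes were: H1f2, H1f3, H2ac24 and H3c13, with log2 fold changes of -0.10, -0.12, -0.21 and -0.14, against -0.17, -0.16, -0.33 and -0.23 over all libraries. At the same limit 3 members were higher: H2ac12, H2bc3 and H3c6, with log2 fold changes of 0.22, 0.16 and 0.13. Of all genes, 654 of 11647 were past that limit in either direction. No member was called without this library, and the smallest adjusted p of a member was 0.838 in edgeR.

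**Figure D3:**
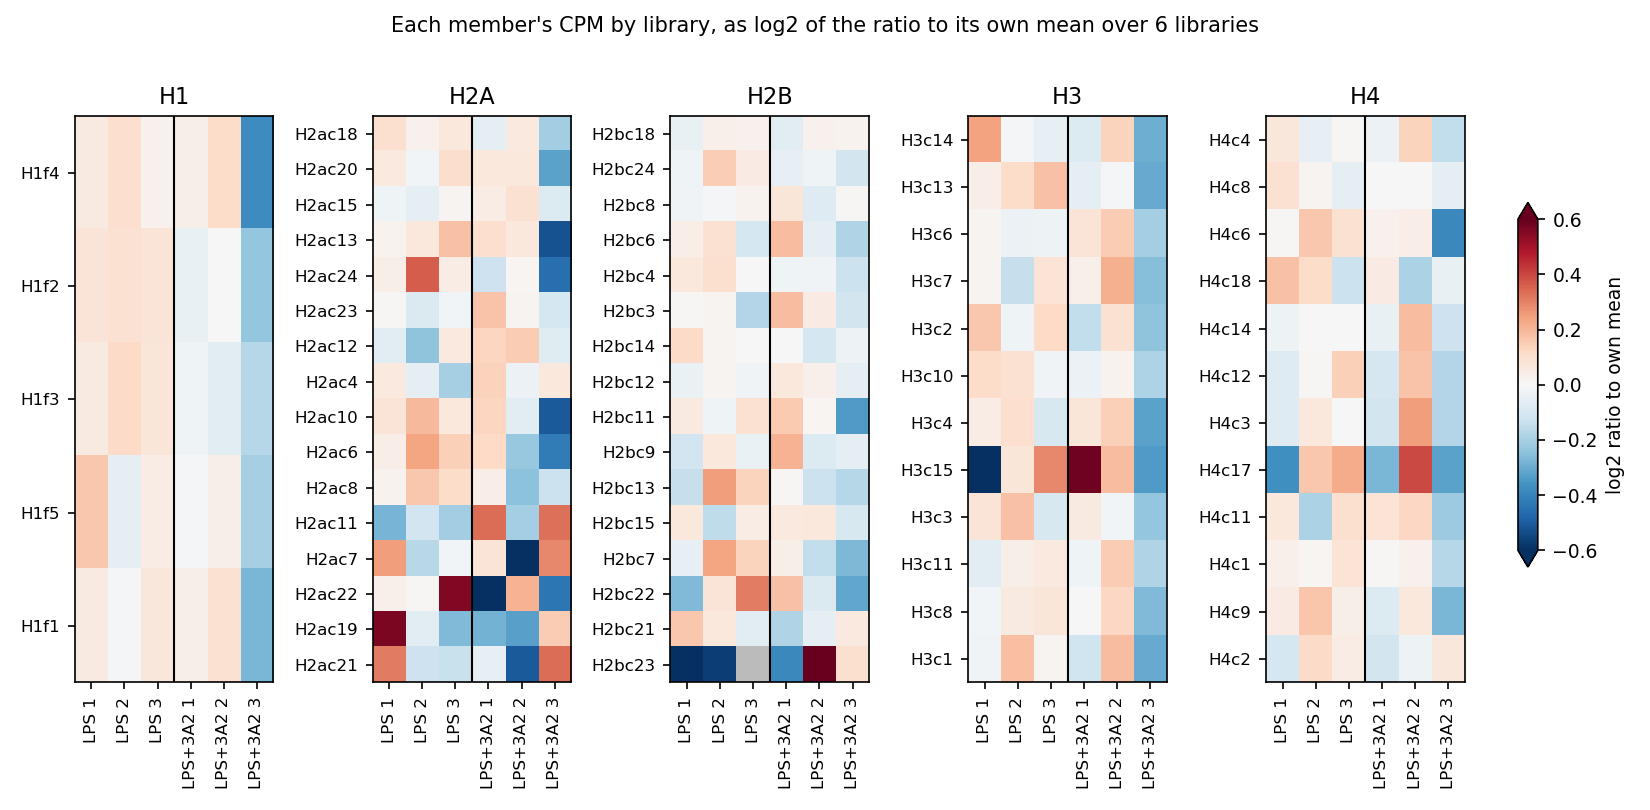
Level of each tested member (rows, by class, most abundant on top) in each library (columns), as the log2 ratio of its CPM to its own mean of 6 libraries, from blue (lower) to red (higher), with grey for a count of 0. The last column, antibody replicate 3, is the lowest for 40 of 61 members.

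Other RNAs also stood apart in that library. The 78 ribosomal protein mRNAs summed to 39446 CPM there and to between 43818 and 44923 CPM in the other libraries, and 62 of them were lowest there. The 13 mitochondrial mRNAs were all highest there, with 30934 CPM against 21915 to 25668 CPM elsewhere. The mitochondrial ribosomal RNA mt-Rnr2 reached 54368 CPM, against 21892 to 41595 CPM in the others. Rn7sk, a small nuclear RNA that also lacks a poly(A) tail, stood at 10219 CPM, against 11529 to 12658 CPM elsewhere. Gene by gene, the list of other RNAs without a poly(A) tail did not go the same way. There, 3 of its 12 tested genes were lowest and 3 highest, and its median log2 deviation of 0.14 was the highest of the 6 libraries. Its sum was the lowest of the 6 libraries, at 22001.5 CPM against 23323 to 24519 CPM elsewhere. The part of all these RNAs in the histone values was not tested. For scale, the members made up 0.514% of the counts of that library and between 0.593% and 0.619% of the others.

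**Figure D4:**
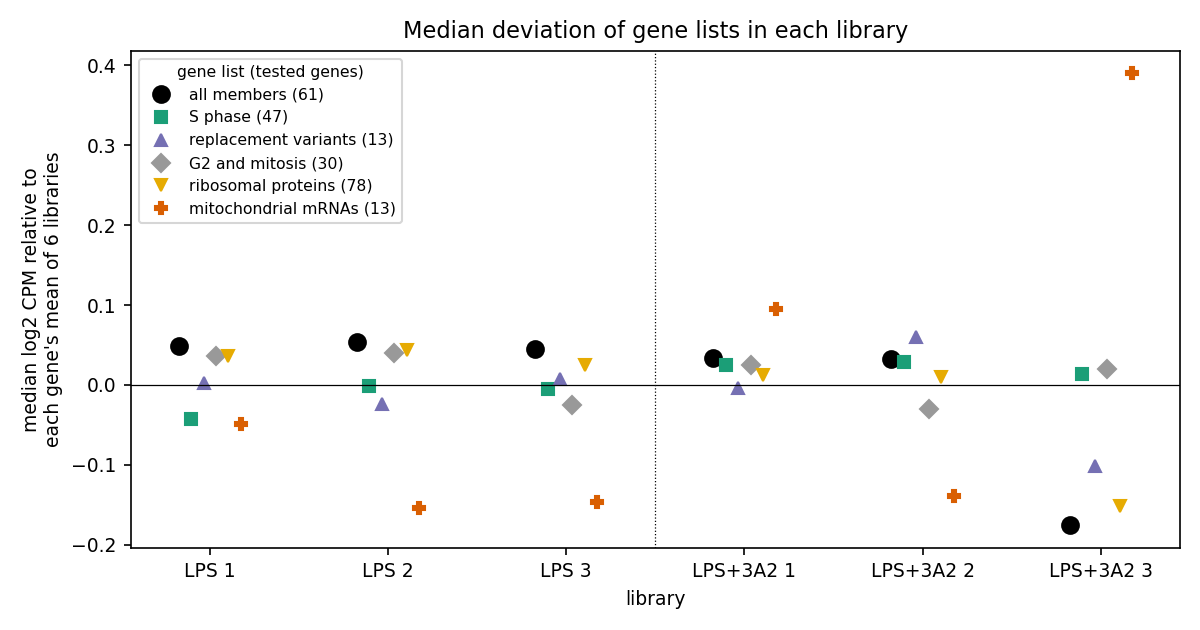
Median log2 CPM of 6 gene lists relative to each gene's mean of 6 libraries (vertical axis) in each library (horizontal axis), with the number of tested genes in the key. In antibody replicate 3 the histone members sit at -0.18, ribosomal protein mRNAs at -0.15, mitochondrial mRNAs at 0.39 and S-phase genes at 0.014.

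Genes that work in S phase, when histone mRNA is made, did not lie lower with the antibody. The list of 47 replication and nucleotide supply genes summed to 2754, 2797 and 2821 CPM with LPS and to 2833, 2870 and 2859 CPM with the antibody. Every antibody library lay above every LPS library, by a narrow margin that depended on the scaling. As a share of raw counts the groups overlapped, at 0.275%, 0.281% and 0.286% with LPS and 0.281%, 0.285% and 0.283% with the antibody. None of these genes was called, and 30 of 47 had a log2 fold change above 0 with a median of 0.032. Pcna, the sliding clamp of DNA polymerases, gave 208, 202 and 209 CPM with LPS and 214, 206 and 250 CPM with the antibody, highest in replicate 3. Rrm1 and Rrm2, the subunits of ribonucleotide reductase, had log2 fold changes of 0.085 and 0.081. Rfc3, a subunit of the clamp loader, had the smallest p of the list, at a fold change of 1.23 (adjusted p in edgeR 0.748), and Prim1, a primase subunit, had a fold change of 1.16. The ratio of summed histone CPM to summed S-phase CPM was 2.21, 2.20 and 2.17 with LPS and 2.11, 2.16 and 1.82 with the antibody. This ratio was below the LPS range in all 3 antibody libraries, in replicate 2 by the smallest margin.

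The machinery that supplies histone mRNA held no called gene either. Of 24 tested genes, 15 had a log2 fold change above 0 and 9 below, with a median of 0.021. Slbp, which encodes the stem-loop binding protein, gave 31.3, 29.0 and 26.9 CPM with LPS and 32.9, 28.2 and 39.9 CPM with the antibody. Replicate 3, the lowest for most histone mRNAs, was the highest for Slbp, and the log2 fold change of 0.21 ± 0.12 (SE) had an adjusted p of 0.794 in edgeR. Npat gave 71.9, 73.9 and 70.8 CPM with LPS and 73.5, 72.0 and 84.0 CPM with the antibody, again highest in replicate 3. Hinfp, which encodes the factor that binds the H4 element, differed little, with a fold change of 0.976. Lsm10 and Lsm11, proteins of the U7 particle, had fold changes of 1.02 and 1.12, and Rnu7, the U7 RNA itself, had 0 counts in all libraries. Sympk, the scaffold of the cleavage complex, gave 175, 179 and 178 CPM with LPS and 162, 170 and 131 CPM with the antibody. Its groups were apart, and the fold change of 0.871 had an adjusted p of 0.734 in edgeR. Among genes for decay of these mRNAs, the fold change was 1.03 for the exonuclease Eri1, 0.919 for the helicase Upf1 and 1.14 for the exonuclease Xrn1, and none was called.

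The replacement histone variants, whose genes make polyadenylated mRNA outside S phase as well, had nearly equal sums in the groups. They summed to 1513, 1528 and 1530 CPM with LPS and 1518, 1535 and 1523 CPM with the antibody, and the sum in antibody replicate 3 lay within the range of the others. Gene by gene, the median log2 deviation of the variants in that library was -0.10, the lowest of the 6 libraries. Of 13 tested genes 6 had a log2 fold change above 0 and 7 below, and none was called. H3f3b, encoding the replacement histone H3.3, gave 308, 330 and 331 CPM with LPS and 338, 351 and 365 CPM with the antibody, with a fold change of 1.09. H1f0, the replacement linker histone, had a fold change of 0.906, H2aj one of 0.817 and H3f3a one of 1.04. The smallest adjusted p of the list was 0.719 in edgeR. The ratio of the members' sum to that of the variants was 4.02 ± 0.018 (SD, n = 3) with LPS and 3.94, 4.03 and 3.42 in the antibody libraries, so the groups overlapped.

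Histone chaperones, the proteins that carry new histones to chromatin, gave 20 of 35 genes above 0 and 15 below, around a median of 0.016 (log2), and none was called. The abundant Npm1, Ncl and Set had fold changes of 1.05, 0.941 and 1.02. Cabin1, a subunit of the HIRA complex, had 102, 104 and 105 CPM with LPS and 88.6, 94.5 and 81.0 CPM with the antibody, with an adjusted p of 0.719 in edgeR. Hat1, the acetyltransferase that marks newly made H4, had a fold change of 1.12.

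Many histone genes are near-copies of each other, so reads can be divided among them by the counting. Of 62 members with a GENCODE transcript, 47 shared at least 1 run of 150 coding bases, the read length, with another histone gene. The 14 tested members with no such run (H1f1 to H1f5, H2ac15, H2ac20, H2ac21, H2bc14, H2bc18, H2bc21, H4c4, H4c6 and H4c14) are those whose reads are least open to that division. They summed to 2175, 2176 and 2173 CPM with LPS and 2095, 2189 and 1836 CPM with the antibody, with antibody replicate 2 highest and antibody replicate 3 lowest, as for all members. Of these 14, 12 had a log2 fold change below 0, where 49.6% of all genes did so, with a median of -0.096. Without antibody replicate 3, H1f1, H1f4, H2ac20 and H4c4 moved above 0, and H2ac15 and H4c14 stayed above 0. With all libraries the other members divided as follows. Of the 16 tested members that shared some but under 50% of their runs, 9 were below 0, with a median of -0.047. Of the 30 tested members sharing at least 50%, 22 were below 0, with a median of -0.079.

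There were 4 pairs of members with the same coding sequence, named here for that identity and not for their values. Of these, H3c14 and H3c15 had the division that differed most between libraries. H3c15 had 163, 626 and 632 counts with LPS and 735, 587 and 377 with the antibody, while H3c14 was 16.8, 4.02 and 3.38 times as high with LPS and 2.69, 4.12 and 4.40 times with the antibody. Their sum was far steadier, at 425, 420 and 425 CPM with LPS and 440, 463 and 340 CPM with the antibody. The fold change of H3c15 alone, 1.33 (95% interval 0.435 to 4.08), is therefore uncertain, and so is that of H3c14. H3c13, which shared 91.9% of its runs, most with the common coding sequence of H3c14 and H3c15, is open to the same division. H2ac24 and H2ac23 had log2 fold changes of -0.33 and 0.065, and the log2 ratio of their summed means was -0.14. The sum was 103, 114 and 102 CPM with LPS and 103, 102 and 83.5 CPM with the antibody. For this sum, which does not depend on division within the pair, the groups overlapped. It still depends on division between the pair and other members. H2ac11, the member past the unadjusted limit in the higher direction, shared most of its runs. No gene shared more of them than H2ac23 and H2ac24, which have the same coding sequence. The fold change of H2ac11 is therefore open to the same division. H2bc23, the member with the largest log2 fold change, shared 100% of its runs. No gene shared more of them than the one GENCODE names Hist1h2br. Division of reads may thus affect the fold change of H2bc23 as well, and its part was not tested. H2ac18 was 28.1 to 51.0 times as high as H2ac19 over the 6 libraries. H4c18 was 1.10 to 2.41 times as high as H4c17, and the log2 ratio of their summed means was -0.094.

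**Figure D5:**
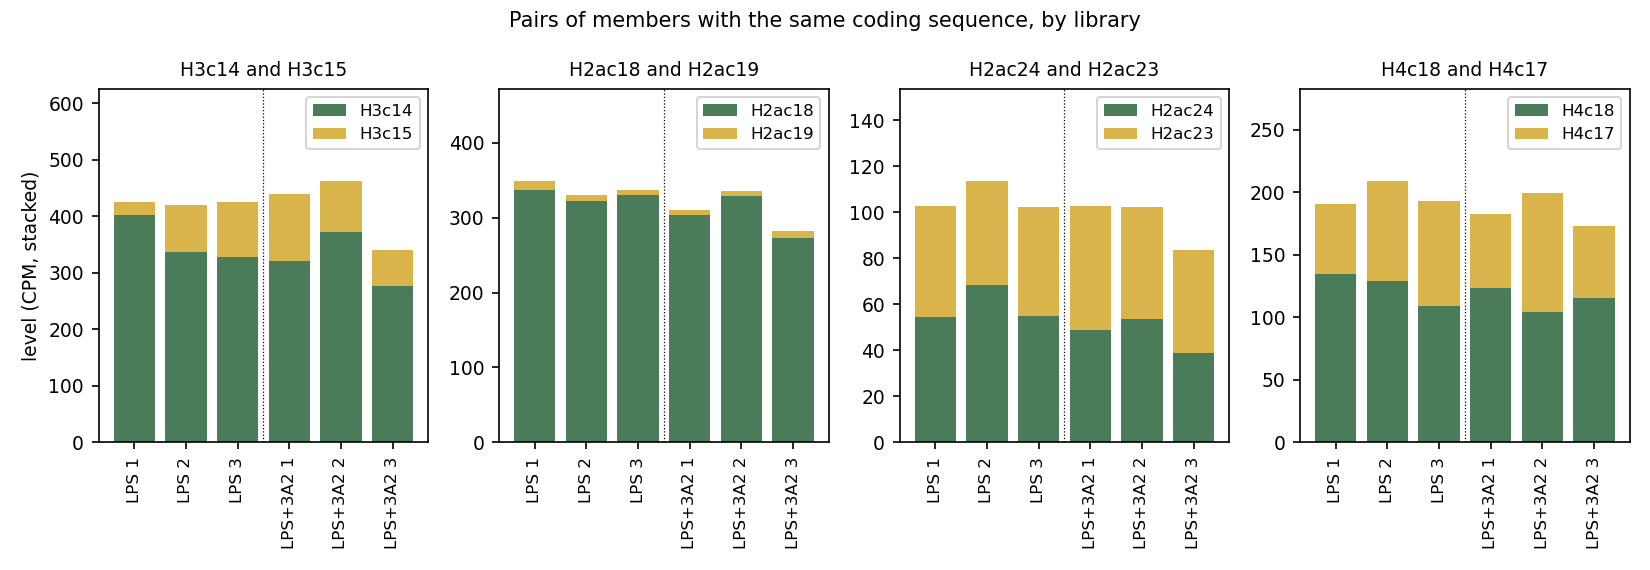
Level in CPM (vertical axis, from 0, scaled per panel) of the 4 pairs of members with the same coding sequence, stacked, in each library. In the H3c14 and H3c15 panel the ratio runs from 3.38 to 16.8 over the LPS libraries, whose totals are 420 to 425 CPM, and from 2.69 to 4.40 over the antibody libraries, whose totals are 340 to 463 CPM.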

How the data were processed

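RNA of 6 cultures was sequenced as strand-specific paired-end libraries after ribosomal RNA depletion, per the labels' protocols. The authors deposited raw counts per gene. HISAT2, edgeR and the build GRCh38 are named per the submitters' processing notes, although the symbols are mouse symbols. The counting program, the annotation and the handling of strand were not given in the sources used here, so no coordinates are given for counts, and overlapping or near-identical genes are uncertain. The 3 unnamed columns with typed cells were not used.

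After filterByExpr and TMM scaling, a two-sided quasi-likelihood test without covariates was run in edgeR 4.0.16 under R 4.3.3, adjusted over 11498 genes by Benjamini-Hochberg. CPM uses TMM-scaled totals. The group and replicate came from the sample titles. DESeq2 1.42.0, limma 3.58.1 (voom), other scalings and filters, a replicate block and leaving out each library were alternatives, and scripts were tested on simulated data. Members and lists were chosen with earlier results of these data known. Named in each class are the 3 most abundant tested members, the 2 of smallest p and any called, and likewise in each related list, where any tested histone supply gene may also be named. Identical pairs, members counted in small groups and the ends of ranges are named beyond that, after their values were seen. P-values set the difference between groups against the spread between these 3 cultures a group, estimated for each gene partly from all genes tested. No 2 libraries agreed within sampling noise. Total counts limit each gene's precision, and a count of 0 allows 3 counts, for counting error only. By symbol, 62 members were matched in RefSeq (GRCm38.p6). The 62 matched in GENCODE M21 were found through their RefSeq transcript accessions, or by an older symbol where that failed.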

Additional observations from a re-analysis of the deposited data

How the results depend on the processing

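The count of members called stayed at 0 in every alternative, including DESeq2, limma-voom and an adjusted p limit of 0.01, while 0 of all genes became 16 without a filter on low counts. Members at an unadjusted p under 0.05 in the lower direction numbered 11 with plain library totals and 10 without a filter, against 6. Of all genes, 4.51% and 2.52% were lower at that limit in these settings, against 3.09%. In the higher direction members numbered 2 without a filter and 2 with limma-voom, against 1. All genes past that limit in either direction were 1120 of 18179 and 740 of 11498 in these settings, against 749 of 11498. Plain totals moved the share of all genes below 0 from 49.6% to 55.0%, and the members below 0 from 44 to 47. H2bc8 changed sign with plain totals, to -0.017. The cause of each was not tested.

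Leaving out 1 library at a time gave 33 to 47 members below 0, where 48.7% to 50.8% of all genes were, and a median of -0.13 to -0.017. It gave 3 to 14 members lower and 0 to 3 higher at an unadjusted p under 0.05, and 0 to 25 called among all genes. The 14 and the 25 came without antibody replicate 2, where the smallest adjusted p of a member was 0.0614 in edgeR, and the 3 lower without LPS replicate 2 or 3. Of all genes, 6.99% were lower at that limit without antibody replicate 2, and 1.84% and 2.09% without LPS replicates 2 and 3. Of the higher counts, 0 came without LPS replicate 1, 2 without LPS replicate 3 and 3 without antibody replicate 3. All genes past the limit in either direction then numbered 652 of 11638, 489 of 11629 and 654 of 11647. The lower direction alone made up 2.55%, 2.09% and 2.82% of all genes tested in these settings. Medians ran from 0.0036 to 0.055 for histone supply, -0.086 to 0.029 for replacement variants and 0.021 to 0.053 for S phase.

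The sign of single genes changed with the library left out, with log2 fold changes from -0.22 to 0.013 for H1f4, -0.16 to 0.016 for H2ac20, -0.034 to 0.017 for H2bc18, -0.032 to 0.042 for H2bc8, -0.041 to 0.13 for H3c6, -0.098 to 0.044 for H4c4 and -0.072 to 0.0026 for H4c8.

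Nothing in the labels says that the replicate numbers pair the cultures. Deviations of same-numbered libraries correlated at -0.0065, 0.032 and -0.16, and those of differently numbered libraries at -0.16 to 0.16. With so few libraries a group these values cannot decide whether the cultures were paired. With the numbers as a replicate block, 1 gene of all and 0 members were called, 45 members were below 0, the median was -0.088 and 2 members were higher at an unadjusted p under 0.05. Of all genes, 49.9% were below 0 in that fit, and 612 of 11498 were past the unadjusted limit in either direction. Among genes with at least 10 counts, no member had 6 counts equal to those of another gene, so leaving such members out gave no value. The difference in summed level, 6120 against 5790 CPM, was smaller than the SD of the antibody group, 518 CPM.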

Other observations

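The mRNAs of G2 and mitosis, the phases that follow histone synthesis, gave 13 of 30 genes with a log2 fold change above 0 and 17 below, with a median of -0.0030 and none called by edgeR. Their sum was 3171, 3169 and 3025 CPM with LPS and 3092, 2932 and 2998 CPM with LPS plus 3A2, groups that overlapped. Mki67, a marker of cycling cells, gave 680, 691 and 658 CPM with LPS and 657, 608 and 597 CPM with the antibody. Its groups were apart by less than 1 CPM, and antibody replicate 3 was the lowest, as for most histone mRNAs. Kif23, a motor protein of cell division, gave 124, 118 and 116 CPM with LPS and 105, 104 and 104 CPM with the antibody. All 3 antibody libraries lay well below the LPS libraries, and the fold change of 0.877 had an adjusted p of 0.719 in edgeR. Top2a, the DNA topoisomerase of dividing cells, had a fold change of 0.993, and Tpx2, a spindle protein, had one of 0.934.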
